A study of Rattus norvegicus with 29 samples.

Results

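Rats conditioned without the anaesthetic were compared with rats conditioned in the presence of isoflurane, in 1 tissue, the basolateral amygdala, 6 h afterwards. The comparison uses 10 of the 29 arrays of the series, the 5 titled FC and the 5 titled IFC, 1 array per sample of total RNA. These titles were read through the series' design text as conditioning and as conditioning in the presence of isoflurane. The other 19 arrays are 9 baseline controls with no time given, 5 rats after pain and 5 rats after isoflurane alone, both at 6 h. The conditioned rats carry the numbers 24, 25, 27, 28 and 31, and the rats conditioned under isoflurane 22, 26, 29, 30 and 32, so the numbers of the groups interleave. Strain, sex, age, shock protocol and isoflurane dose are not given in the sources used here. Neither is whether memory was tested in these rats. The labels of these 10 arrays name no labelling kit, whereas those of the baseline and isoflurane-only arrays do. The question set for the comparison is which transcripts differ in the amygdala when the anaesthetic is present during conditioning.

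In fear conditioning an animal learns that a neutral cue predicts a shock, and the basolateral amygdala is where cue and shock inputs meet. Lasting memory needs new transcription after training: calcium and cAMP signals activate kinases and the transcription factor CREB, which drives fast regulators such as Fos, Egr1 and Arc and, later, growth factors, channels and structural genes. Isoflurane is an inhaled anaesthetic that enhances inhibitory GABA-A receptors, opens two-pore potassium channels and blocks the laying down of memory.

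No probe set separated the groups after correction for the number tested. A probe set is the unit of these arrays, a group of short probes for 1 transcript, and its value here is the log2 of the deposited signal after quantile normalization. Of 9520 probe sets bright enough to test, 0 (0%) reached an adjusted p under 0.05 in limma, and the lowest adjusted p was 0.999. At an unadjusted limma p under 0.05 there were 351 probe sets (3.69%), against 476 for p-values spread evenly; 181 (1.9%) were higher after conditioning without isoflurane and 170 (1.79%) lower. Fitted on the 10 arrays alone, 245 were higher and 232 lower at that p. All 5 conditioned rats lay above all 5 rats conditioned under isoflurane at 30 probe sets (0.315%), and below them at 37 (0.389%). If the 10 arrays were split at random, full separation in either direction would have a probability of 0.00794 at each probe set.

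**Figure D1:**
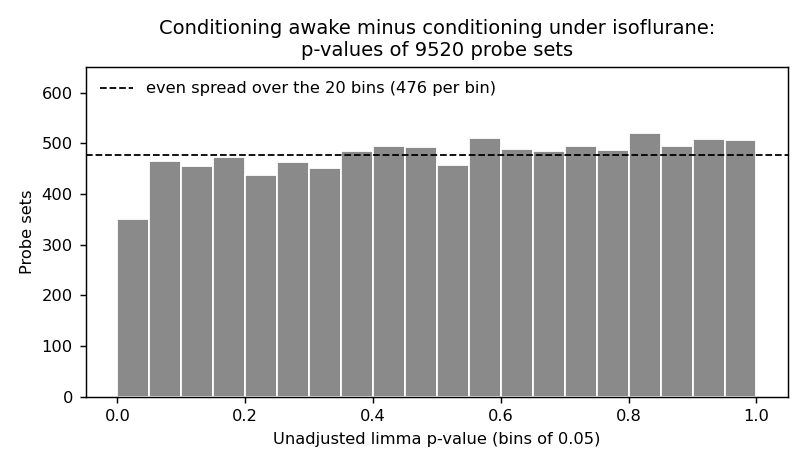
Number of probe sets (vertical axis) in each bin of unadjusted limma p-value (horizontal axis, bins of 0.05) for the 9520 tested probe sets. The dashed line marks 476 probe sets per bin, the height of an even spread; the lowest bin holds 351.

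The median standard error of a difference was 0.14 log2 units, which gives a 95% interval of 0.29 to either side. For 9317 probe sets (97.9%) the interval lay within 1 log2 unit of 0, a 2-fold difference, and for 6789 (71.3%) it lay within 0.5. Only 5 probe sets had an estimated difference beyond 1 log2 unit, the largest being 1.26. These intervals are not widened for the number of probe sets tested.

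A pair of arrays stood apart from the other 8 on the first principal component and in correlation, but not together on the second component. On the first principal component of the 10 arrays, which holds 21.8% of the variance, conditioned rats 1 and 2 lay at -22.9 and -18.1, and the others between -0.464 and 12.7. Their median correlations with the other arrays were 0.9539 and 0.9585, against 0.966 to 0.9731. On the second component (17.7% of the variance) conditioned rats 1 and 2 lay at opposite ends, at 18.5 and -14.4. Conditioned rat 5 lay at -13.4 there and IFC rat 5 at 13.4. The median SD over probe sets was 0.207 among the conditioned rats and 0.172 among those conditioned under isoflurane. It was 0.219 at baseline, 0.220 after pain and 0.205 after isoflurane alone, so the conditioned rats were close to these groups. For conditioned rats 3 to 5 it was 0.168, taken over 3 arrays after leaving out those apart on the first component. Because of the first component and the correlations, results are also given for conditioned rats 3 to 5 against the same 5 rats conditioned under isoflurane. This choice was made after these values were seen. Without conditioned rats 1 and 2, 0 probe sets again passed (lowest limma adjusted p = 0.305), with 88 higher and 97 lower at an unadjusted p under 0.05.

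The tissue was checked against marker genes. Several markers of excitatory projection neurons were bright. The vesicular glutamate transporter Slc17a7 averaged 11.74 over the 10 arrays at its brightest probe set, Nrgn 12.62, Cck 12.04 and Lmo4 12.08. Other members of that list were dimmer: Lmo3 averaged 9.42, Neurod2 8.43 and Neurod1 8.05. The cortical and amygdalar transcription factor Tbr1 averaged 6.39, under the brightness limit of 7.26. Of the hypothalamic markers, Oxt, Hcrt, Trh, Pomc and Otp were under that limit, and Avp (7.30) and Pmch (7.36) just above it. Other members of the hypothalamic and thalamic list were brighter: Calb2 averaged 11.12, Cartpt 9.80, Lhx2 9.56, Slc17a6 9.07, Gal 8.61 and Tcf7l2 8.04. Rspo2 and Etv1, which mark projection neurons of this nucleus, were not analysed here.

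The genes that memory work would look to first gave differences close to 0 at 6 h. No earlier time after conditioning was sampled, so these values do not bear on differences before 6 h. Fos, an activity-induced transcription factor, read 7.31, 7.89, 8.23, 8.14 and 7.88 in the conditioned rats and 8.65, 7.96, 7.84, 8.18 and 6.69 in those conditioned under isoflurane. The groups overlapped throughout, and the difference was 0.03 log2 units (95% interval -0.80 to 0.85), which leaves room for sizes well past 1.5-fold either way. Egr1, a zinc finger factor of the same class, read 10.18, 10.08, 10.30, 10.60 and 10.67 against 10.52, 10.80, 10.47, 10.77 and 10.18. Its difference was -0.18 (interval -0.45 to 0.09), with conditioned rats 1 and 2 and IFC rat 5 the lowest of the 10. Arc, which regulates AMPA receptor uptake at synapses, read 9.23, 9.05, 9.00, 9.63 and 9.09 against 9.21, 9.33, 9.15, 9.41 and 9.10, a difference of -0.04 (interval -0.42 to 0.34). Bdnf, a growth factor of synaptic plasticity, differed by -0.11 (interval -0.64 to 0.42), Nr4a1 by -0.01, Homer1 by -0.06, Junb by -0.04 and Creb1 itself by -0.06. The signs of Fos, Arc, Bdnf, Nr4a1, Homer1, Junb and Creb1 each turned when some single rat or rat pair was left out.

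As lists, 7 of 15 tested activity-regulated transcription factors and 6 of 18 activity-regulated effectors were higher in the conditioned rats, and none of either list reached an unadjusted limma p under 0.05. Across all 7049 genes tested (probe sets of 1 gene averaged), 3343 (47.4%) were higher, the median difference was -0.01, and 143 (2.03%) were higher and 127 (1.8%) lower at that p. The medians of the lists were -0.01 and -0.04. Among the effectors with the lowest p, Rgs4 and Rgs2, which speed the shut-off of G protein signals, differed by -0.33 and -0.27, and the kinase Plk2 by -0.20. Without conditioned rat 2 the difference was -0.17 for Rgs4 and -0.11 for Rgs2, and without IFC rat 5 it was -0.10 for Plk2. Rgs2 read 8.84 and 8.52 in conditioned rats 1 and 2 and 9.14 to 9.75 in conditioned rats 3 to 5, around the 9.35 to 9.56 under isoflurane. With conditioned rats 3 to 5 alone its difference was 0.06.

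Of these 33 activity-regulated genes, 23 had a promoter in the RefSeq table used (rat assembly GRCr8, 250 bases before to 50 after each start), and 5 of the windows held the full cAMP response element, the site CREB binds, TGACGTCA, which reads the same on both strands. They were Crem (difference 0.42, and 0.15 with no filter), Dusp1 (0.10), Vgf (-0.11), Scg2 (-0.18) and Plk2 (-0.20), 2 higher and 3 lower. Over all windows, 612 of 33469 (1.83%) held these letters, and the 190 of their genes that were tested had a median difference of -0.01, with 83 higher, beside a median of -0.01 and 2796 higher among the 5921 tested genes with a window. The palindromic glucocorticoid response element, AGAACA and TGTTCT with 3 bases between them, was in 5 windows (0.0149%), of which 0 belonged to tested genes.

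Signalling and receptor genes gave small differences on both sides of 0. Of 44 memory-linked kinases, phosphatases and CREB factors, 17 were higher and 27 lower (median -0.05), with 0 at an unadjusted p under 0.05 in limma. The lowest p-values belonged to Camk2g (-0.18, interval -0.37 to 0.00) and the kinase Camkk1 (-0.18). Camk2g is a subunit of the calcium/calmodulin kinase that marks potentiated synapses. Camk2a, the main forebrain subunit, differed by 0.09 (interval -0.30 to 0.48). Of 29 glutamate receptor and postsynaptic genes, 11 were higher and 18 lower (median -0.03). The NMDA receptor subunits Grin1 and Grin2b differed by -0.21 and -0.32, the kainate receptor subunit Grik2 by -0.35. Grin2a, another NMDA receptor subunit, differed by -0.70, but conditioned rat 1 read 4.71 against 7.28 to 7.91 in the other conditioned rats, and without it the difference was -0.14.

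Among targets of the anaesthetic, 9 of 10 tested GABA-A and glycine receptor genes were lower in the conditioned rats, with a median of -0.09. Gabrb2, the beta2 subunit of the most common GABA-A receptor, read 10.50, 10.55, 10.91, 10.86 and 10.70 in the conditioned rats and 11.13, 10.76, 11.00, 11.16 and 11.03 under isoflurane. Only IFC rat 2 fell among the conditioned rats. The difference was -0.31 ± 0.11 (SE; interval -0.54 to -0.08) with a limma adjusted p of 0.999, and -0.20 with conditioned rats 3 to 5 alone. On those arrays 6 of the 10 list members were higher and the list median was 0.04. Over all 10 arrays with no filter on dim probe sets, where more of them enter the gene mean, Gabrb2 differed by -0.14. Gphn, the scaffold that anchors these receptors, differed by -0.22 (-0.05 with conditioned rats 3 to 5 alone) and the subunit gene Gabra4 by -0.13 (interval -0.55 to 0.29).

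Of 11 two-pore, HCN and inward-rectifier channel genes, 8 were higher (median 0.11). Without conditioned rat 1, 6 were higher and the median was 0.01, and without conditioned rat 5 it was 0.19. Kcnk6, a two-pore potassium channel, was the 1 with an unadjusted p under 0.05, reading 8.01, 7.80, 7.70, 7.51 and 7.07 against 7.11, 7.48, 7.19, 7.37 and 7.14. The difference was 0.36 (interval 0.01 to 0.71), with conditioned rat 5 below all 5 rats of the other group; it was 0.16 with no filter and 0.17 with conditioned rats 3 to 5 alone. Kcnk2, the two-pore channel TREK-1, which volatile anaesthetics open, read 8.23, 7.85, 8.25, 8.80 and 8.05 against 9.20, 8.54, 8.93, 8.93 and 8.08. Its difference of -0.50 had an interval from -1.14 to 0.14. Of 27 voltage-gated channel genes, 12 were higher and 15 lower (median -0.01), with Kcnh1, an EAG potassium channel, at -0.32 and at -0.19 without conditioned rat 2.

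**Figure D2:**
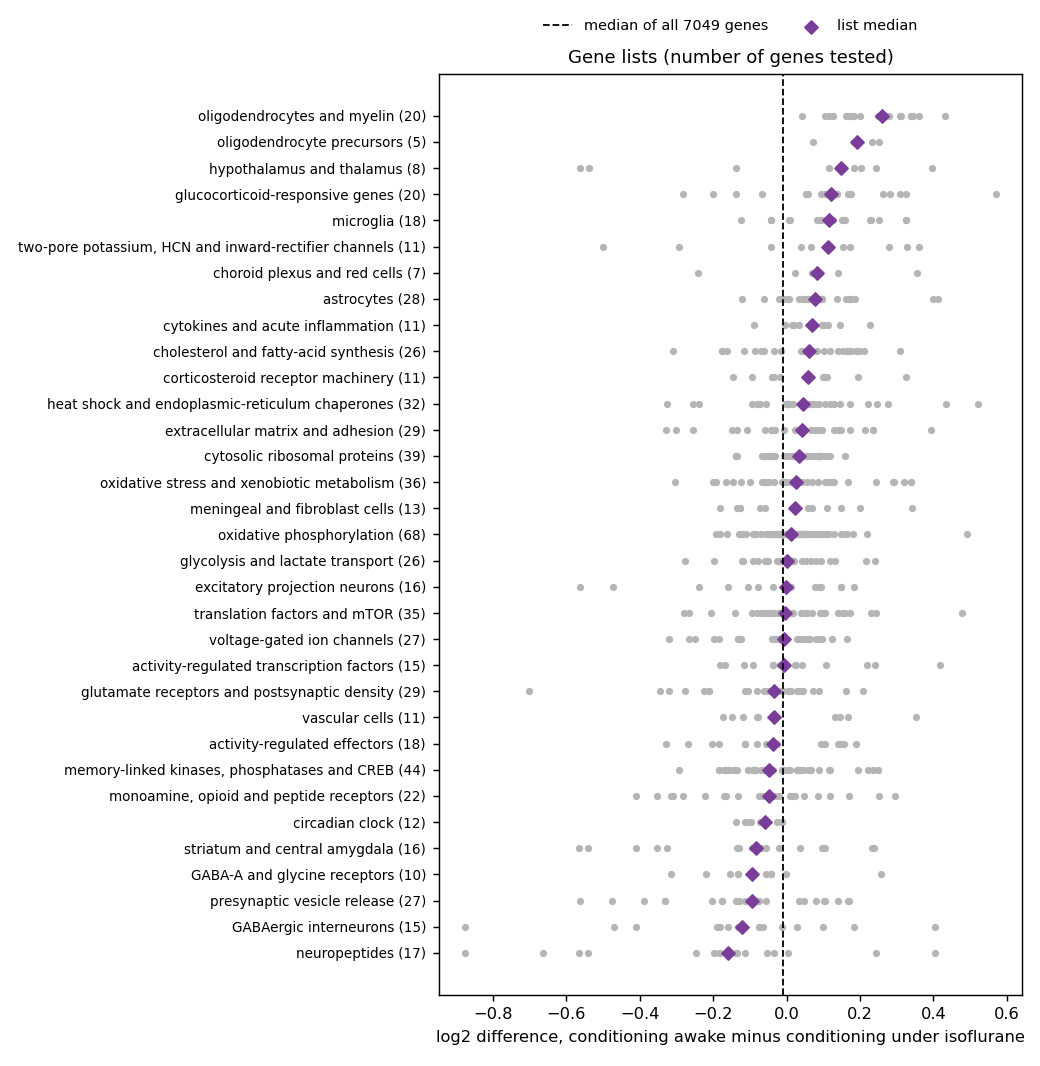
Difference in log2 signal, conditioning minus conditioning under isoflurane (horizontal axis), of each tested gene (grey points) in 33 gene lists, with the list median (diamonds) and, in brackets, the number of genes tested. The dashed line is the median of all 7049 genes, -0.01; list medians run from -0.16 for neuropeptides to 0.26 for oligodendrocytes and myelin.

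The list with the highest median was that of oligodendrocytes, the glia that wrap axons in myelin. All 20 tested members were higher in the conditioned rats, with a median of 0.26, and 3 of them reached an unadjusted limma p under 0.05. Over all genes tested, 47.4% were higher, and 2.03% were higher at that p. Tspan2, a tetraspanin of maturing oligodendrocytes, read 9.83, 10.27, 10.34, 10.50 and 10.81 in the conditioned rats and 10.00, 9.63, 10.21, 10.07 and 9.69 under isoflurane as the mean of its probe sets. The difference was 0.43 ± 0.15 (SE; interval 0.12 to 0.74; limma adjusted p = 0.998), with conditioned rat 1 inside the other group's range. Cldn11, the claudin of myelin tight junctions, differed by 0.36 (interval 0.02 to 0.69) and Mal, a myelin membrane proteolipid, by 0.34 (interval 0.01 to 0.67). Mobp, a structural protein of compact myelin, differed by 0.34 and Mbp, myelin basic protein, by 0.17 (interval -0.11 to 0.45). All 5 tested markers of oligodendrocyte precursors were also higher, with a median of 0.19; Ptprz1, a receptor phosphatase of these cells, differed by 0.25.

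The rats did not fall into separate groups on this list. Its score on an array is the mean over the members of their deviation from their average over all 29 arrays. The scores were -0.07, 0.29, 0.05, 0.19 and 0.51 in the conditioned rats and 0.06, -0.13, 0.18, -0.09 and -0.23 under isoflurane. Conditioned rats 2, 4 and 5 lay above all 5 rats of the other group, and conditioned rats 1 and 3 among them. The group means were 0.20 ± 0.22 and -0.04 ± 0.16 (SD, n = 5 each), beside -0.04 ± 0.17 at baseline, -0.02 ± 0.16 after pain and -0.05 ± 0.17 after isoflurane alone. The baseline scores ran from -0.27 to 0.21. Without conditioned rat 5 the list median was 0.15, without IFC rat 5 it was 0.16, and with conditioned rats 3 to 5 alone it was 0.29 with 20 of 20 higher. In bulk tissue, a different number of cells of a type and a different amount of RNA per cell cannot be told apart. Neither can a different share of fibre tract in the dissected piece be told apart from them.

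**Figure D3:**
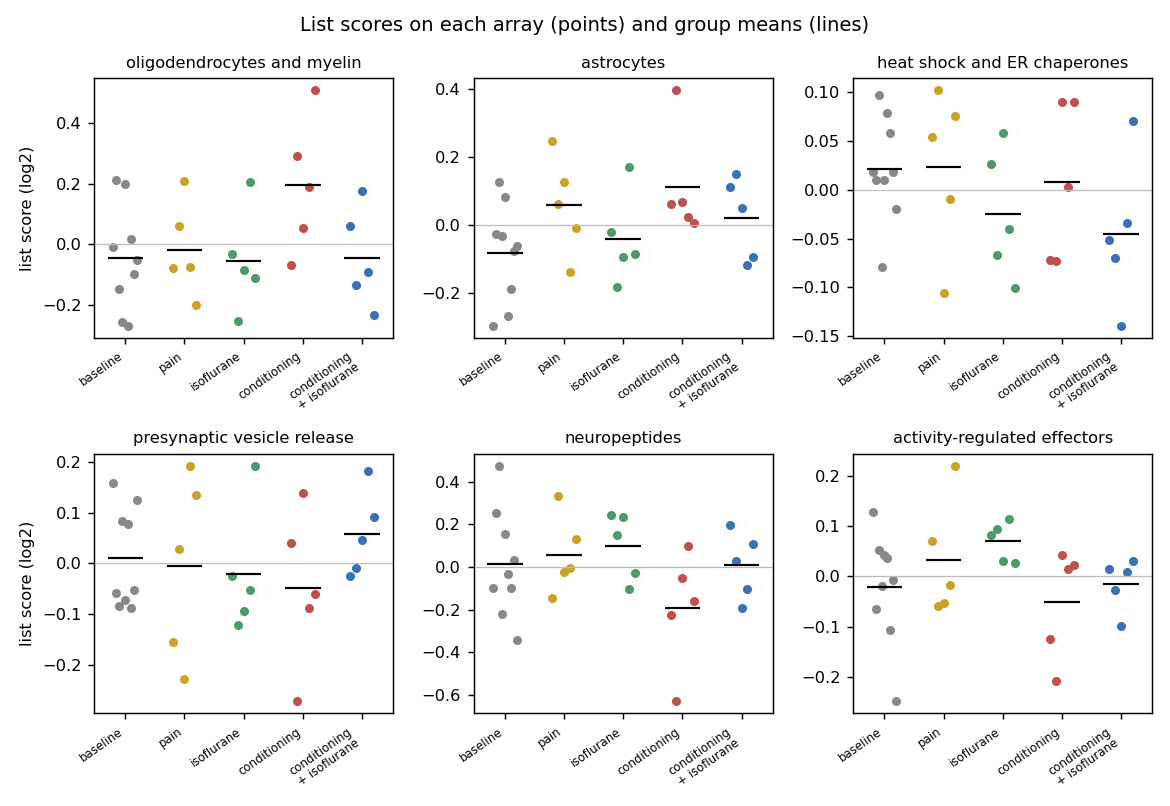
List scores (vertical axes, log2 units, mean deviation of the members from their average over 29 arrays) on every array of the 5 groups for 6 gene lists; points are arrays and lines group means. On the oligodendrocyte list the conditioned rats run from -0.07 to 0.51 and the rats conditioned under isoflurane from -0.23 to 0.18.

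The other glial lists also held more higher than lower genes, with medians nearer 0. Of 28 astrocyte genes, 23 were higher (median 0.08), and Fabp7, a fatty-acid binding protein of immature glia, was the 1 with an unadjusted p under 0.05 (0.40, interval 0.06 to 0.73). Gfap, the astrocyte filament protein, differed by 0.06. The astrocyte score of conditioned rat 2 was 0.40, against 0.01 to 0.07 in the other conditioned rats, and with conditioned rats 3 to 5 alone 13 of 28 were higher (median 0.00). Of 18 microglial genes, 15 were higher (median 0.12), led by the lysosomal protein Laptm5 (0.33) and the receptor Csf1r (0.25, and 0.14 without conditioned rat 1), and 0 reached an unadjusted limma p under 0.05. With conditioned rats 3 to 5 alone 9 of 18 were higher (median 0.00).

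Apod, Pmp22 and Clec11a were among the genes with the lowest p on the higher side. Apod, a lipid carrier secreted by oligodendrocytes and astrocytes, read 10.56, 11.14, 10.76, 10.53 and 11.02 in the conditioned rats and 9.97, 10.77, 10.21, 9.86 and 10.01 under isoflurane. All but IFC rat 2 of the second group lay below the first, and the difference was 0.64 ± 0.18 (SE; interval 0.28 to 1.00). Pmp22, a membrane protein best known from myelin of peripheral nerve, read 9.39, 9.30, 9.18, 9.18 and 9.51 against 8.99, 8.95, 9.05, 8.72 and 8.66. The groups did not overlap at this probe set and differed by 0.44 ± 0.15 (SE); the other Pmp22 probe set was also higher, and their mean differed by 0.23 (interval -0.08 to 0.54). Clec11a, a secreted growth factor, differed by 0.42 and its other probe set was also higher. The part of the oligodendrocyte list's differences in these values was not tested.

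Among the remaining low-p probe sets that were higher in the conditioned rats, Zfp36, which binds AU-rich messenger RNA and speeds its decay, read 7.70, 7.71, 7.63, 7.62 and 7.43 against 6.75, 6.88, 7.55, 6.64 and 7.13. IFC rat 3 lay inside the conditioned range, and the difference was 0.63 ± 0.18 (SE; interval 0.26 to 0.99). The group means were 7.62 ± 0.11 and 6.99 ± 0.36 (SD, n = 5 each), with baseline between them at 7.21 ± 0.23 (SD, n = 9). Tex264, a receptor for autophagy of the endoplasmic reticulum, read 8.53, 8.54, 8.71, 8.53 and 8.94 against 7.85, 7.98, 8.40, 8.16 and 8.17. The groups did not overlap, with a difference of 0.54 ± 0.18 (SE), and the isoflurane-only rats averaged 8.68 ± 0.33 (SD, n = 5), at the level of the conditioned rats. The rats after pain averaged 8.01 ± 0.49 (SD, n = 5), near the 8.11 of the rats conditioned under isoflurane, and baseline 8.44 ± 0.23 (SD, n = 9). Cfdp1, a chromatin protein, differed by 0.51, the Hippo pathway kinase Stk4 by 0.48, Commd1 by 0.42, Ppp1r8, an inhibitor subunit of protein phosphatase 1, by 0.42, the F-box protein Fbxo27 by 0.38, the chromatin kinase Baz1b by 0.37 and the GPI-anchor enzyme subunit Pigk by 0.27. Ppp1r18 (0.57), the complement component C9 (0.50), the corepressor Hr (0.48) and Cdc42se1 (0.45) were the other non-overlapping probe sets named by size; the other Cdc42se1 probe set was lower. Stk4 differed by 0.30 and Cdc42se1 by 0.28 with conditioned rats 3 to 5 alone.

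**Figure D4:**
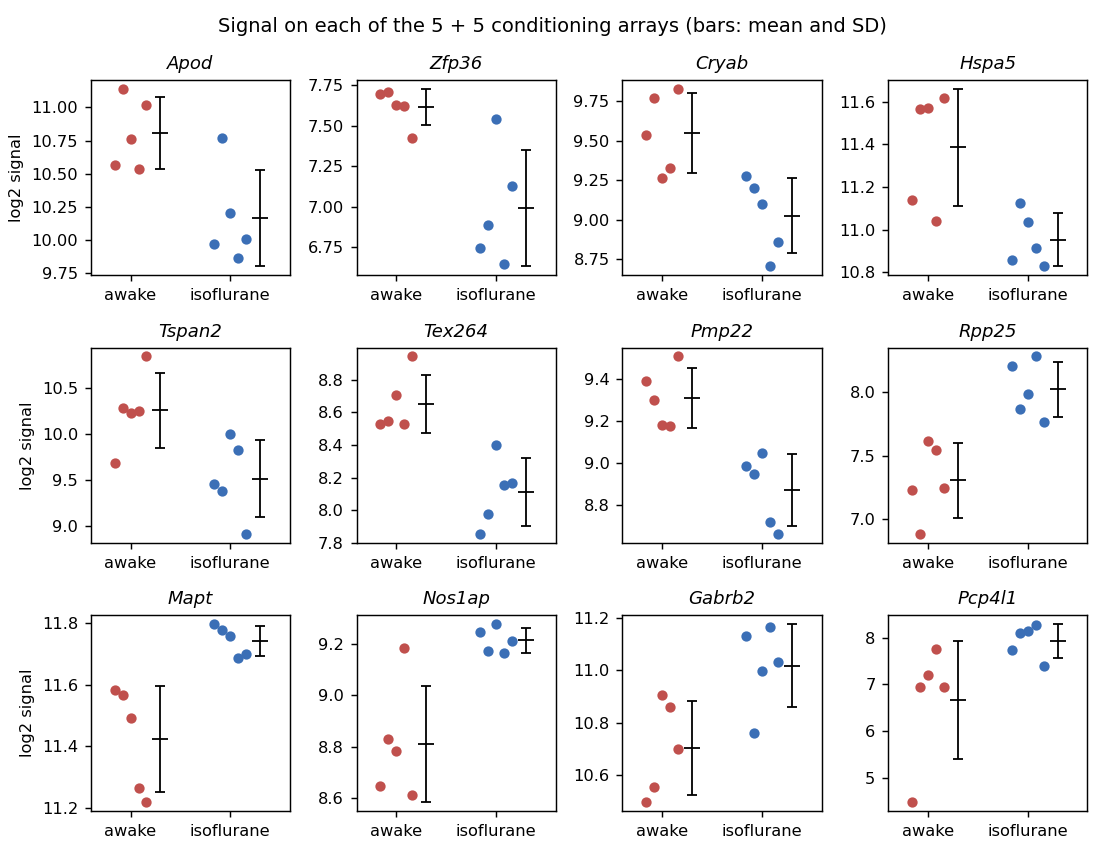
Log2 signal (vertical axes, each with its own range) of 12 probe sets on the 5 arrays of conditioning (awake) and the 5 of conditioning under isoflurane; points are arrays and bars the mean and SD. Tex264 and Pmp22 (conditioned rats higher) and Rpp25 and Mapt (conditioned rats lower) do not overlap between groups, and a single conditioned array at 4.48 sets the low mean of Pcp4l1.

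Chaperones, which fold proteins in the cytosol and the endoplasmic reticulum, held 4 genes higher at an unadjusted limma p under 0.05 and 0 lower, out of 32 tested. In all, 23 of the 32 were higher, and the list median was 0.05. Over all genes tested, 47.4% were higher, and 2.03% were higher at that p. Hspa5, the master chaperone of the endoplasmic reticulum (BiP), read 11.14, 11.57, 11.57, 11.04 and 11.62 in the conditioned rats and 10.86, 11.12, 11.03, 10.92 and 10.83 under isoflurane. All conditioned rats but rat 4 lay above all of the second group; the difference was 0.43 ± 0.13 (SE; interval 0.16 to 0.71; limma adjusted p = 0.999). Pdia6, a disulphide isomerase of the same compartment, read 11.10, 11.19, 11.22, 11.11 and 11.32 against 11.01, 11.05, 10.92, 11.03 and 11.06. These did not overlap, with a difference of 0.17 (interval 0.04 to 0.31).

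Calr, the calcium-binding lectin chaperone calreticulin, differed by 0.25 (interval 0.05 to 0.45), with 12.01, 11.76, 11.81, 11.74 and 11.82 against 11.74, 11.56, 11.71, 11.64 and 11.25. Only conditioned rat 4 lay inside the range of the second group. Cryab, a small heat shock protein abundant in oligodendrocytes and astrocytes, read 9.54, 9.77, 9.27, 9.33 and 9.83 against 9.27, 9.20, 9.10, 8.71 and 8.86, a difference of 0.52 ± 0.16 (SE; interval 0.20 to 0.84). Conditioned rat 3 was the 1 conditioned rat inside the range of the second group. With conditioned rats 3 to 5 alone, 26 of 32 chaperone genes were higher (median 0.10) and 3 had an unadjusted limma p under 0.05; without conditioned rat 5 the median was 0.01.

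**Figure D5:**
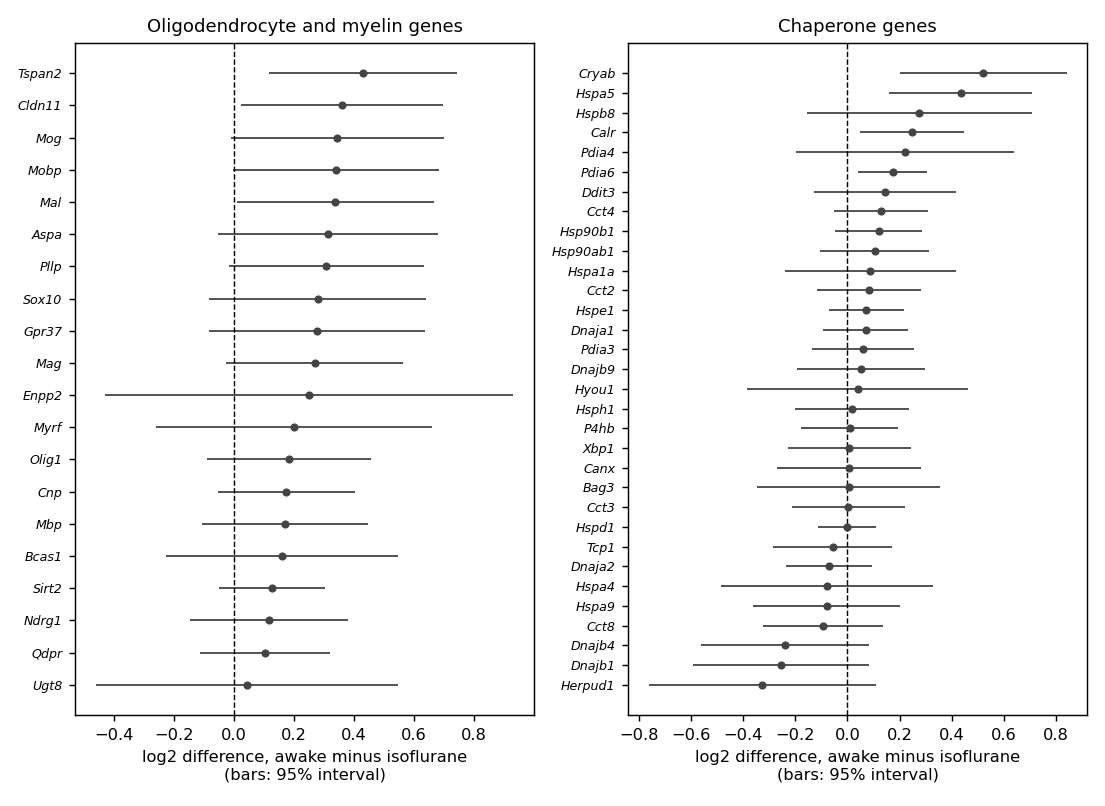
Difference in log2 signal, conditioning minus conditioning under isoflurane (horizontal axes), of each tested oligodendrocyte and myelin gene (left) and chaperone gene (right); points are estimates and bars 95% intervals from limma. All 20 points on the left lie above 0, with 3 intervals that exclude it, and 23 of 32 on the right, with 4.

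Because Hspa5, Pdia6 and Calr fold proteins in 1 compartment, promoters were searched for the endoplasmic reticulum stress element, CCAAT and CCACG with 9 bases between them, on both strands, a search chosen after these values were seen. Pdia6 had no promoter window and was not searched. The element was in 22 of 33469 windows (0.0657%), of which 13 belonged to tested genes. The 13 had a median difference of 0.01, with 8 higher. At an unadjusted limma p under 0.05, Hspa5 and Calr were higher and Ankmy2 (-0.25) lower. Hspa5 and Calr are also genes whose values prompted the search. Among the 5921 tested genes with a window the median was -0.01, with 2796 higher. At that p, 113 of the 5921 were higher and 99 lower. Creld2, a secreted endoplasmic reticulum protein, differed by 0.27 (0.15 without IFC rat 3) and Hsp90b1, the compartment's HSP90, by 0.12 (interval -0.05 to 0.29). The windows of Hspa5 (chr3:38452766-38453065, plus strand), Calr (chr19:40213117-40213416, plus strand) and Hsp90b1 (chr7:23012244-23012543, minus strand), from RefSeq with GRCr8 coordinates, are shown so that the element can be seen in place. Each is written 5′ to 3′ along its gene, with the element in capitals, and for Calr and 1 of the 2 matches in Hsp90b1 the capitals are its reverse complement.
Hspa5: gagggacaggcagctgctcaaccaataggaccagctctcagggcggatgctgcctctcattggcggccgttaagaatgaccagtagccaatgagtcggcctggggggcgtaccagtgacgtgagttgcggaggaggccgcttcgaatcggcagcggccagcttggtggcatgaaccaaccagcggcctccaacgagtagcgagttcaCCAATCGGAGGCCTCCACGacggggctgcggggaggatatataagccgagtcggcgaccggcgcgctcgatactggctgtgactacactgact
Calr: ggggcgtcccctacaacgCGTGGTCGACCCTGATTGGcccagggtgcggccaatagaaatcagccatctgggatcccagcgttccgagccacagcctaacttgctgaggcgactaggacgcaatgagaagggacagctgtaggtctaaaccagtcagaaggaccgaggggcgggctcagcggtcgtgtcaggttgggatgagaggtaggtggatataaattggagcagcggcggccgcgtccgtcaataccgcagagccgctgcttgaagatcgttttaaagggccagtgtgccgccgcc
Hsp90b1: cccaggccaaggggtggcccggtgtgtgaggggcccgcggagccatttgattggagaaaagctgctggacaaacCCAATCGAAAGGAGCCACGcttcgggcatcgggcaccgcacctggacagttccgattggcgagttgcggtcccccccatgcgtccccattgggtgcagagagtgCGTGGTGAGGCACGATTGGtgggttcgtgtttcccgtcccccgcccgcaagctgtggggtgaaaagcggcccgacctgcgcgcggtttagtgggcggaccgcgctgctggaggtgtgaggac
The match in Hspa5 begins 43 bases before the start of the gene, that in Calr 232 bases before, and those in Hsp90b1 176 and 72 bases before.

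In the lists of presynaptic and neuropeptide genes, more were lower than higher. Of 27 genes of presynaptic vesicle release, 8 were higher and 19 lower (median -0.10), and 2 were lower at an unadjusted limma p under 0.05. Of all genes tested, 47.4% were higher, and 1.8% were lower at that p. Sncb, beta-synuclein of presynaptic terminals, read 10.40, 10.15, 10.77, 9.94 and 9.97 in the conditioned rats and 10.29, 10.52, 10.60, 10.98 and 10.78 under isoflurane, a difference of -0.39 (interval -0.68 to -0.09). Conditioned rats 2, 4 and 5 lay below all 5 rats of the second group. Vamp2, the vesicle SNARE synaptobrevin, read 11.77, 10.89, 11.30, 11.39 and 11.40 against 11.96, 11.37, 11.80, 11.82 and 11.46, a difference of -0.33 (interval -0.64 to -0.03) that was -0.22 without conditioned rat 2 and -0.08 with no filter. Rab3c, a small GTPase of vesicles, differed by -0.47 and Dnm1, the GTPase that pinches off endocytic vesicles, by -0.18, neither with an unadjusted limma p under 0.05; without conditioned rat 2 they differed by -0.26 and -0.10. With conditioned rats 3 to 5 alone, 19 of 27 were lower (median -0.04).

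Neuropeptide genes had the lowest list median, -0.16, with 14 of 17 lower. Chgb, a granin of the secretory granule, was the 1 member lower at an unadjusted limma p under 0.05 (-0.25, interval -0.49 to 0.00), reading 10.98, 10.63, 11.05, 10.91 and 10.81 against 10.96, 10.98, 11.14, 11.23 and 11.31. Adcyap1, the stress peptide PACAP, read 8.53, 7.29, 7.78, 8.63 and 7.84 against 8.60, 8.79, 8.45, 8.60 and 8.93, a difference of -0.66 (interval -1.33 to 0.00). Conditioned rats 2, 3 and 5 lay lowest, and rats 1 and 4 at the level of the other group. Tac3, the neurokinin B precursor, differed by -0.87, but conditioned rat 2 read 5.42 against 6.93 to 8.34, and without it the difference was -0.43. Vip, a peptide of interneurons, lay the other way at 0.41 (interval -0.01 to 0.82). The list score of conditioned rat 2 was -0.63, against -0.22 to 0.10 in the other conditioned rats and -0.19 to 0.20 under isoflurane. Without conditioned rat 2 the list median was -0.07, and with conditioned rats 3 to 5 alone it was -0.04.

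Markers of neuron types were close to balanced or lower. Of 16 excitatory projection neuron genes, 8 were higher (median 0.00): Slc17a7 differed by -0.08 (interval -0.60 to 0.44), Chn1 by 0.15 and Slc17a6, the glutamate transporter of subcortical neurons, by -0.56 (interval -1.29 to 0.16). Of 15 interneuron genes, 11 were lower (median -0.12), with the GABA-synthesising enzyme Gad1 at -0.12 (interval -0.54 to 0.30), the calcium buffer Pvalb at -0.41 and the vesicular GABA transporter Slc32a1 at -0.47 (-0.26 without IFC rat 1). Vip, also on this list, differed by 0.41. Without conditioned rat 2 the interneuron median was -0.05, and with a filter at the 70th percentile it was -0.01. With conditioned rats 3 to 5 alone the interneuron median was -0.04 and Gad1 differed by 0.02. Of 16 striatal and central amygdala markers, 11 were lower (median -0.08). Across these lists 0 genes had an unadjusted limma p under 0.05.

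The dopamine receptor Drd1, dense in striatum and intercalated cells, read 8.66, 7.96, 8.32, 8.66 and 8.46 in the conditioned rats and 9.01, 8.85, 9.19, 8.89 and 8.79 under isoflurane at 1 probe set. The groups did not overlap there and differed by -0.53 ± 0.20 (SE); the other probe set was also lower, and their mean differed by -0.35 (interval -0.72 to 0.02). The list of monoamine, opioid and peptide receptors held 9 of 22 higher (median -0.05), with the nociceptin receptor Oprl1 at -0.28, the nicotinic subunit Chrna4 at -0.31 and the somatostatin receptor Sstr1 at -0.31. Without conditioned rat 1 Oprl1 differed by -0.11, and without conditioned rat 2 Sstr1 differed by -0.18. The striatal score ran from -0.29 to 0.23 among the conditioned rats; its part in the Drd1 values was not tested.

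Among single probe sets with the lowest p on the lower side, Rpp25, an RNase P and MRP subunit, read 7.23, 6.88, 7.62, 7.55 and 7.25 against 8.21, 7.87, 7.99, 8.28 and 7.76. The groups did not overlap and differed by -0.72 ± 0.21 (SE; interval -1.15 to -0.29), with baseline at 7.85 ± 0.36 (SD, n = 9) near the rats conditioned under isoflurane. Mapt, the microtubule-binding protein tau, read 11.58, 11.56, 11.49, 11.26 and 11.22 against 11.80, 11.78, 11.76, 11.68 and 11.70 at 1 probe set. This was a difference of -0.32 ± 0.10 (SE) without overlap, but of the other 2 Mapt probe sets 1 was higher and 1 lower, and the mean of the 3 differed by -0.13 (interval -0.29 to 0.04). Nos1ap, an adaptor of neuronal nitric oxide synthase, read 8.65, 8.83, 8.78, 9.18 and 8.61 against 9.25, 9.17, 9.28, 9.16 and 9.21, a difference of -0.40 ± 0.14 (SE) in which conditioned rat 4 sat with the second group. Sertad1, a cell-cycle regulator, differed by -0.83, the actin-binding Ablim3 by -0.56, the kinase-like Scyl2 by -0.50, the nuclear envelope protein Sun2 by -0.40, Glmn by -0.37, the death-associated kinase Dapk1 by -0.37, Zfp330 by -0.37, the lipid flippase Atp9b by -0.33 and Rwdd4 by -0.30, whose other probe set was higher. Dapk1 differed by -0.23, Scyl2 by -0.33 and Rwdd4 by -0.18 with conditioned rats 3 to 5 alone.

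Pcp4l1, a calmodulin-binding protein related to Pcp4, had the largest difference among the named genes, -1.26 (interval -2.16 to -0.36). It read 4.48, 6.94, 7.21, 7.76 and 6.94 against 7.73, 8.11, 8.15, 8.26 and 7.40. Without conditioned rat 1 the difference was -0.71, and with conditioned rats 3 to 5 alone it was -0.62. C7h8orf82 (-0.36), Ganc (-0.50), B3glct (-0.48) and the stress kinase Map2k3 (-0.45) were the other named probe sets without overlap on the lower side. The intervals of Ganc (-1.14 to 0.14) and Map2k3 (-0.94 to 0.03) include 0, and without conditioned rat 1 Ganc differed by -0.31.

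In the matrix and adhesion list 18 of 29 genes were higher (median 0.04), but the 2 at an unadjusted limma p under 0.05 were lower. At that p, 1.8% of all genes tested were lower and 2.03% higher. L1cam, the axonal adhesion molecule, read 9.87, 9.85, 9.99, 9.94 and 10.11 against 10.37, 10.21, 10.23, 10.45 and 10.14. It did not overlap between groups and differed by -0.33 (interval -0.58 to -0.07). Opcml, a GPI-anchored adhesion protein of neurons, differed by -0.30 (interval -0.52 to -0.08). Tnr, a component of perineuronal nets, differed by 0.39 (interval -0.06 to 0.85; 0.24 without IFC rat 5) and the matrix protease Mmp2 by 0.21 (0.14 without IFC rat 2).

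In the hormone and lipid lists more genes were higher than lower. Of 20 glucocorticoid-responsive genes, 16 were higher (median 0.12), and Rhob, a stress-inducible GTPase, was the 1 with an unadjusted limma p under 0.05 (0.17, interval 0.01 to 0.32). Hsd11b1, the enzyme that regenerates active corticosterone, differed by 0.33, the mTOR inhibitor Ddit4 by 0.28 and Angptl4, a lipase inhibitor, by 0.26. Without conditioned rat 2 Ddit4 differed by 0.14, Angptl4 by 0.17 and the list median was 0.08, and with conditioned rats 3 to 5 alone Hsd11b1 differed by 0.18. Fkbp5, the standard reporter of glucocorticoid receptor activity, read 8.79, 8.73, 8.76, 8.52 and 8.86 against 8.51, 8.77, 8.93, 8.92 and 8.22. Its difference was 0.06 (interval -0.23 to 0.35), and -0.06 without IFC rat 5. Of 11 corticosteroid receptor machinery genes 6 were higher, with the co-chaperone Fkbp4 at 0.19 (0.13 without IFC rat 2).

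Of 26 cholesterol and fatty-acid synthesis genes, 16 were higher (median 0.06) and 0 reached an unadjusted limma p under 0.05. The median was 0.01 without IFC rat 5 and 0.11 without conditioned rat 3. Insig1, a sterol-regulated brake on the pathway, read 9.97, 9.99, 9.65, 9.86 and 9.76 against 9.58, 9.70, 9.70, 9.70 and 9.69. The difference was 0.17 (interval -0.001 to 0.34), and 0.08 with conditioned rats 3 to 5 alone. The unadjusted p was 0.051 in limma and 0.0397 in an exact two-sided permutation test. Conditioned rat 3 lay inside the range of the second group. The isoflurane-only rats averaged 9.42 ± 0.08 (SD, n = 5) and baseline 9.87 ± 0.11 (SD, n = 9). The rats after pain averaged 9.67 ± 0.15 (SD, n = 5), level with the 9.67 of the rats conditioned under isoflurane. Srebf1, a transcription factor of lipid synthesis, differed by 0.31, but by 0.19 without conditioned rat 1 and 0.06 with conditioned rats 3 to 5 alone. The desaturase Fads2 differed by 0.21 and the sterol demethylase Cyp51 by 0.20.

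Metabolic and housekeeping lists were close to the centre. Of 36 oxidative stress genes 20 were higher (median 0.03), with the glutathione transferase Gstt3 at 0.34 (interval 0.11 to 0.57; 0.21 without conditioned rat 5) and extracellular superoxide dismutase Sod3 at 0.32 (interval 0.01 to 0.63; 0.16 with conditioned rats 3 to 5 alone). Of 68 oxidative phosphorylation genes 37 were higher (median 0.01): the complex I subunits Ndufa13 and Ndufb9 differed by 0.18 and 0.16 and the complex III subunit Uqcrc1 by -0.19, each with an unadjusted limma p under 0.05. Of 39 ribosomal protein genes 26 were higher (median 0.03), with Rpl6 at 0.11 and Rps6 at -0.14 on opposite sides at that p. Glycolysis genes were split evenly, 13 higher and 13 lower (median 0.00), with Aldoa at 0.09 and Ldha at -0.20 (-0.08 without conditioned rat 2), and translation factors gave 17 higher and 18 lower (median 0.00), with the cap-binding protein Eif4e at -0.21 (0.02 with a filter at the 70th percentile). All 12 circadian clock genes were lower, by a median of -0.06 and with 0 at that p; with conditioned rats 3 to 5 alone 7 of 12 were.

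Blood and border tissue did not separate the groups. The haemoglobin gene Hbb read 11.51, 11.40, 11.71, 11.52 and 12.14 against 10.66, 11.11, 12.14, 11.65 and 12.03, a difference of 0.14 (interval -0.42 to 0.70). Ttr, the transthyretin of choroid plexus, differed by -0.24 (interval -1.92 to 1.44), since IFC rat 5 read 10.67 and the other 9 rats 6.92 to 9.19. Of 11 vascular genes 4 were higher (median -0.03), with the thyroid hormone transporter Slco1c1 at 0.35 (interval 0.04 to 0.66; 0.22 without conditioned rat 2). Of 13 meningeal and fibroblast genes 7 were higher (median 0.02), of 11 cytokine genes 9 (median 0.07), of 8 hypothalamic and thalamic genes 5 (median 0.15, and 0.01 without IFC rat 4) and of 7 choroid plexus and red cell genes 6 (median 0.08).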

How the data were processed

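The deposited values are linear intensities, 1 per probe set and array, scaled by the authors to a common level: leaving out 2% of probe sets at each end, array means are 500.08 to 500.12 in the deposited table; software and genome build are not given in the sources used here. Medians of the 10 arrays ran from 227.35 to 249.95. Of 15923 probe sets, 57 controls were left out; of the other 15866, 12783 carry 1 gene symbol, 312 several and 2771 none, and gene identifiers tied 12748 of them to the RefSeq rat gene table, with 0 symbols changed. Signals were quantile normalized over 29 arrays, floored at 16 and log2 transformed. Tested were 9520 probe sets with a mean at or above the 40th percentile (7.26), of which 8043 carry 1 symbol, giving 7049 genes.

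limma 3.58.1 in R 4.3.3 (lmFit, eBayes with a trend) fitted 1 mean per group over all 29 arrays, with Benjamini-Hochberg adjustment over all probe sets or genes tested, and was checked on simulated data. Exact two-sided permutation tests of 5 against 5 rats have 252 splits and cannot give a p below 0.00794. Named are the 15 genes with the lowest p in each direction, the 5 with the largest non-overlapping difference in each direction, up to 4 members of each of the 33 lists with the lowest p, and a set of memory, stress and tissue genes; genes with a searched promoter element were added after their values were seen. The members and lists were chosen with earlier results of these data known. The labels give each of the 10 samples a rat number of its own, and limma's p-values rest on the spread between all 29 arrays, the permutation tests on the 10. The number of arrays limits the precision. Replicate numbers do not pair the groups.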

Additional observations from a re-analysis of the deposited data

Results flagged for a closer look

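Among 348 groups of 5 arrays examined (each named gene and list score in each of the conditioned groups), 20 held 1 array whose gap to its nearest neighbour exceeded 0.71 of the group's range, the 95% critical value of Dixon's test for 5 values; chance flags about 5% of groups. Conditioned rat 1 was low for Rwdd4 (9.017, others 9.453 to 9.563), Pcp4l1 (4.481, others 6.94 to 7.763), Ganc (6.509, others 7.324 to 7.551), Grin2a (4.706, others 7.282 to 7.91) and Rpl6 (12.83, others 12.85), and high for the retinoid receptor Rxrg (10.02, others 9.436 to 9.579). Conditioned rat 2 was low for the inward rectifier Kcnj4 (7.007, others 8.006 to 8.381), Kcnh1 (7.491, others 8.012 to 8.203) and the interneuron list score (-0.4861, others -0.1145 to 0.02805), and high for the astrocyte score (0.3959, others 0.006052 to 0.06715) and the vascular score (0.2786, others -0.04352 to 0.04587). Conditioned rat 4 was high for the striatal and central amygdala score (0.2313, others -0.2866 to -0.164), and conditioned rat 5 low for Rpl41 (12.46, others 12.81 to 12.88).

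Among the rats conditioned under isoflurane, rat 1 was low for Insig1 (9.58, others 9.694 to 9.701) and high for Scg2 (11.55, others 10.79 to 10.96). Rat 2 was low for the Drd1 mean (7.734, others 8.156 to 8.273) and high for the translation factor Eif4g2 (11.04, others 10.64 to 10.75). Rat 3 was low for Rps6 (13.02, others 13.09 to 13.11) and for the activity-regulated transcription factor score (-0.1882, others -0.06582 to -0.02024), and high for the meningeal and fibroblast score (0.6294, others -0.1914 to 0.01345). Of the 20, 11 fell on conditioned rats 1 and 2, the arrays that also lay apart on the first principal component. Flags and component come from the same arrays, so neither is a separate check on the other.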

How the results depend on the processing

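The count of probe sets with a limma adjusted p under 0.05 was 0 under every alternative run, with lowest adjusted p-values from 0.305 (conditioned rats 3 to 5 only) to 1. Of 181 higher and 170 lower probe sets at an unadjusted p under 0.05, there were 118 higher with arrays centred on their medians, 341 and 318 with no filter, 92 and 94 with a filter at the 70th percentile, and 88 and 97 with conditioned rats 3 to 5 only. Leaving out 1 rat gave 116 to 259 higher and 104 to 301 lower, the low ends without conditioned rat 2 and the high ends without conditioned rat 4. Probe sets without overlap numbered 55 above and 58 below with no filter, 8 and 17 with the 70th-percentile filter, 107 and 133 with conditioned rats 3 to 5 only, and 47 to 93 and 46 to 129 with 1 rat left out, where fewer rats have to separate. Replicate numbers did not pair the groups (correlations of -0.0281, 0.259, -0.238, 0.0265 and -0.0884 between same-numbered rats); the replicate block gave 0 adjusted calls, with 200 higher and 176 lower over all groups, and 251 and 249 over the 10 arrays.

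Some signs turned, and the cause was not tested. With conditioned rats 3 to 5 only the difference was 0.06042 for Rgs2, -0.009453 for Pygm, 0.08344 for Scg2, 0.001804 for Arc, 0.1565 for Bdnf, 0.126 for Homer1, 0.08237 for Junb, 0.02671 for Gabra4, 0.02055 for Gad1, -0.07082 for Camk2a and 0.03815 for Creb1. With the 70th-percentile filter it was 0.1014 for Kcnj4 (-0.29 with the 40th-percentile filter) and 0.02248 for Eif4e, where fewer probe sets enter the mean, and with no filter 0.1182 for Homer1. It was -0.03524 for Fos with rat number as a covariate, 0.001656 for Nr4a1 on the deposited scaling and -0.005774 for Gfap with median centring. With 1 rat left out the difference ran from -0.2664 to 0.2221 for Fos, -0.1486 to 0.009658 for Arc, -0.2295 to 0.02006 for Bdnf, -0.1072 to 0.09122 for Nr4a1, -0.112 to 0.02401 for Homer1, -0.1328 to 0.1173 for Junb, -0.05566 to 0.1227 for Fkbp5, -0.07397 to 0.2975 for Hbb, -0.13 to 0.04994 for Creb1, -0.03911 to 0.1046 for Gfap, -0.1867 to 0.01534 for Slc17a7 and -0.6374 to 0.3014 for Ttr. Over all alternatives the median of all genes lay between -0.03496 and -0.001281, and the oligodendrocyte list median between 0.1527 and 0.3188.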

Other observations

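The probe set with the lowest p of all tested carries no gene symbol in the annotation used; it was 0.95 log2 units higher in the conditioned rats (limma adjusted p = 0.999).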
